A study of Homo sapiens with 9 samples.

Results

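Interferon-stimulated effector genes encode the proteins that carry out the antiviral state of a cell: sensors of foreign RNA, enzymes that block translation or degrade RNA, and modifiers of other proteins. The 46 genes described here were taken from the deposited table of 27407 features as the rows whose symbol is on a list of such genes. All 46 were present, and all 46 passed the filter on low counts that left 18767 features for testing.

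The cells were Weri-RB1/CRP, which the labels give as a retinoblastoma line resistant to carboplatin, a platinum drug that damages DNA. The groups carried shSNHG1#1, shSNHG1#2 or shNC, with 3 RNA sequencing libraries each. The first 2 are short hairpin RNAs, which are processed into small RNAs that lower matching transcripts, directed at the long noncoding RNA gene SNHG1, and shNC is the control hairpin. All groups share the resistant line, RPMI medium and fetal bovine serum, and the labels name no interferon, virus or drug added to any of them. The level of SNHG1 itself was not analysed here, and the groups follow the labels without a check of the knockdown. The labels do not say whether the cells were clones or pools. Nothing in the labels says that replicates were separate cultures, and the p-values reflect the variation among these libraries, which may be technical.

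Type I and type III interferons bind different receptors, but both activate the kinases JAK1 and TYK2 and lead to a complex with STAT2 and IRF9 that binds the interferon-stimulated response element in the promoters of these genes. Many of the products, among them the RNA sensors, act back on the same pathway. In tumour cells the programme can be active without infection, and sets of these genes have been linked to resistance to DNA damage.

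Each library held 21502093 to 21606498 estimated counts in total. Most photoreceptor markers did not bear out a retinal identity. In every group, 10 of 12 cone markers and 7 of 8 rod markers had a mean under 1 FPKM. FPKM is fragments scaled by transcript length and library depth. The exceptions were the cone markers GNAT2 (16.0 to 19.6 FPKM over the 9 libraries) and THRB (1.63 to 2.43) and the rod marker NR2E3 (0.79 to 1.42). All 7 epithelial markers had a mean above 1 FPKM, from EPCAM at 1.56 to 3.56 FPKM to the keratin KRT8 at 745 to 790.2 FPKM. The epithelial KRT19 moved with the groups, at 36.3 to 38.0 FPKM in shSNHG1#1, 41.5 to 45.8 FPKM in shSNHG1#2 and 57.8 to 61.3 FPKM in shNC, while EPCAM and CLDN4 were lowest in shNC, and their part in the results was not tested. The library shSNHG1#1 replicate 1 stood apart: it had the highest level of 6 of 6 fibroblast markers and 8 of 12 leukocyte markers, with the proteoglycan gene DCN at 9.80 FPKM, against at most 0.81 FPKM in any other library. A feature with no gene symbol took 12.2% to 13.5% of all counts in shSNHG1#1, 11.8% to 12.1% in shSNHG1#2 and 6.57% to 7.09% in shNC, so values per library total and TMM-scaled values (weighted trimmed mean of M values, a scaling over most features) differ, as given beside the results they touch.

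The response element was searched as GAAA, any 2 bases and GAAA again. Promoter windows from 250 bases before to 50 bases after the start were found for 39 of the 46 genes in RefSeq (assembly GRCh38.p14), and both strands were searched, with overlapping matches counted separately. It was present for 27 of these 39 genes, or 69.2%, and for 4.38% of all 27305 genes with such windows. IFIT2, MX2, OAS2, OASL, PARP10, TRIM22 and USP18 were not matched. The 180 bases before the start are shown for IFI6, the gene with the lowest fold change in both comparisons against shNC, for the ubiquitin-like ISG15, for the neighbours DDX60L and DDX60 and the neighbours IFI44L and IFI44, whose levels moved apart, and for HERC5, whose level was not called changed. Letters are in lower case, with matches to the motif or its reverse complement (TTTC, any 2 bases, TTTC) in capitals and overlapping matches run together.
IFI6: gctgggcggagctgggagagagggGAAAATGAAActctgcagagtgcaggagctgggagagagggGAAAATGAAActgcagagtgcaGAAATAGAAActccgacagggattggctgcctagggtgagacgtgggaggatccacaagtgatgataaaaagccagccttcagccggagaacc
ISG15: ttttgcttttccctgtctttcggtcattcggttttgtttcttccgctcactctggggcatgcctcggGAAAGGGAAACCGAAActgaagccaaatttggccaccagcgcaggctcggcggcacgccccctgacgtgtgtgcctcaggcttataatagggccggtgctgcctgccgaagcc
DDX60L: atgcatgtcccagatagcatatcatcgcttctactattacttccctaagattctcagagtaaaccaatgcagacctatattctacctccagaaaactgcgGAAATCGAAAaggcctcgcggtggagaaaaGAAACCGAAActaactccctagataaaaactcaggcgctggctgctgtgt
DDX60: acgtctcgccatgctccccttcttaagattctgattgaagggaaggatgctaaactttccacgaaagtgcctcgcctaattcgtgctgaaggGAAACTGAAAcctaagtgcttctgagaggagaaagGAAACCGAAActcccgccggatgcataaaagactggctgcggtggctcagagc
IFI44L: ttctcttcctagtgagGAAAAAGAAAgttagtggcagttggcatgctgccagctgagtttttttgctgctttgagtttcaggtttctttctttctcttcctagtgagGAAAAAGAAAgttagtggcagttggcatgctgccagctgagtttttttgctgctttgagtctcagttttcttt
IFI44: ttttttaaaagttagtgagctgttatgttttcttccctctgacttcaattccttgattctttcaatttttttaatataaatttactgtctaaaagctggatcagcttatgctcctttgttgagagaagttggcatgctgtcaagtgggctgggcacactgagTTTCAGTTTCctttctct
HERC5: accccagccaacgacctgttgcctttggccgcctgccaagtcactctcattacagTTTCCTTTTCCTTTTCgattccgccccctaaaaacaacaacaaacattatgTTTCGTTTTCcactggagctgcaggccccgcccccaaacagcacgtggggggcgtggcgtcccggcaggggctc
These stretches lie at chr1:27672193-27672372 (minus strand), chr1:1013317-1013496 (plus), chr4:168480493-168480672 (minus), chr4:168318753-168318932 (minus), chr1:78620268-78620447 (plus), chr1:78649609-78649788 (plus) and chr4:88456939-88457118 (plus) in GRCh38.p14. IFI6 and HERC5 hold 3 matches each, ISG15, DDX60L, DDX60 and IFI44L 2 each, and IFI44 holds 1. A match was thus present both in genes that fell and in genes that rose or were not called. With shSNHG1#1 it was found for 21 of the 33 matched genes that fell, 2 of the 2 that rose and 4 of the 4 that were not called. With shSNHG1#2 it was found for 19 of the 29 that fell, 4 of the 4 that rose and 4 of the 6 that were not called.

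Most interferon-stimulated effector genes were lower with shSNHG1#1 than with shNC. Of the 46 genes, 39 fell, 3 rose (IFI44, OASL and DDX60) and 4 were not called (HERC5, SAMD9, RSAD2 and EPSTI1), at an adjusted p under 0.05 in edgeR's quasi-likelihood test. Over all 18767 features tested, 23.5% were called lower and 24.5% higher in the same comparison. The median log2 fold change was -0.72 for the 46 genes and 0.023 for all features. A fall of at least 1.5-fold was called for 29 of the 46 genes, against 7.3% of all features, and one of at least 2-fold for 6, against 2.67%. The 3 libraries of shSNHG1#1 lay below all 3 of shNC for 39 genes, against 27.4% of all features, and above them for 4, against 29.0%. On library totals with the most abundant feature left out, described below, 39 fell and 5 rose. Over all features, 2848 were called lower and 6890 higher on that scaling. Fewer cells with an active programme and less RNA per cell cannot be told apart in such bulk samples.

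With shSNHG1#2 the shift against the same shNC libraries was smaller. Of the 46 genes, 35 fell, 5 rose (IFI44, SAMD9, DDX60, OASL and RSAD2) and 6 were not called (IFI44L, HERC5, SAMD9L, XAF1, EPSTI1 and LGALS3BP). Of all features, 22.8% were called lower and 23.3% higher. The median log2 fold change was -0.42 for the 46 genes and 0.011 for all features, and falls of at least 1.5-fold were called for 10 of the 46, against 6.38% of all features. A fall of at least 2-fold was called for 0 of them, against 2.29%. The libraries of shSNHG1#2 lay below all of shNC for 36 genes, against 27.4% of all features, and above for 6, against 28.3%. On totals without the most abundant feature, 33 fell and 10 rose. Over all features, 2545 were called lower and 6742 higher on that scaling.

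**Figure D1:**
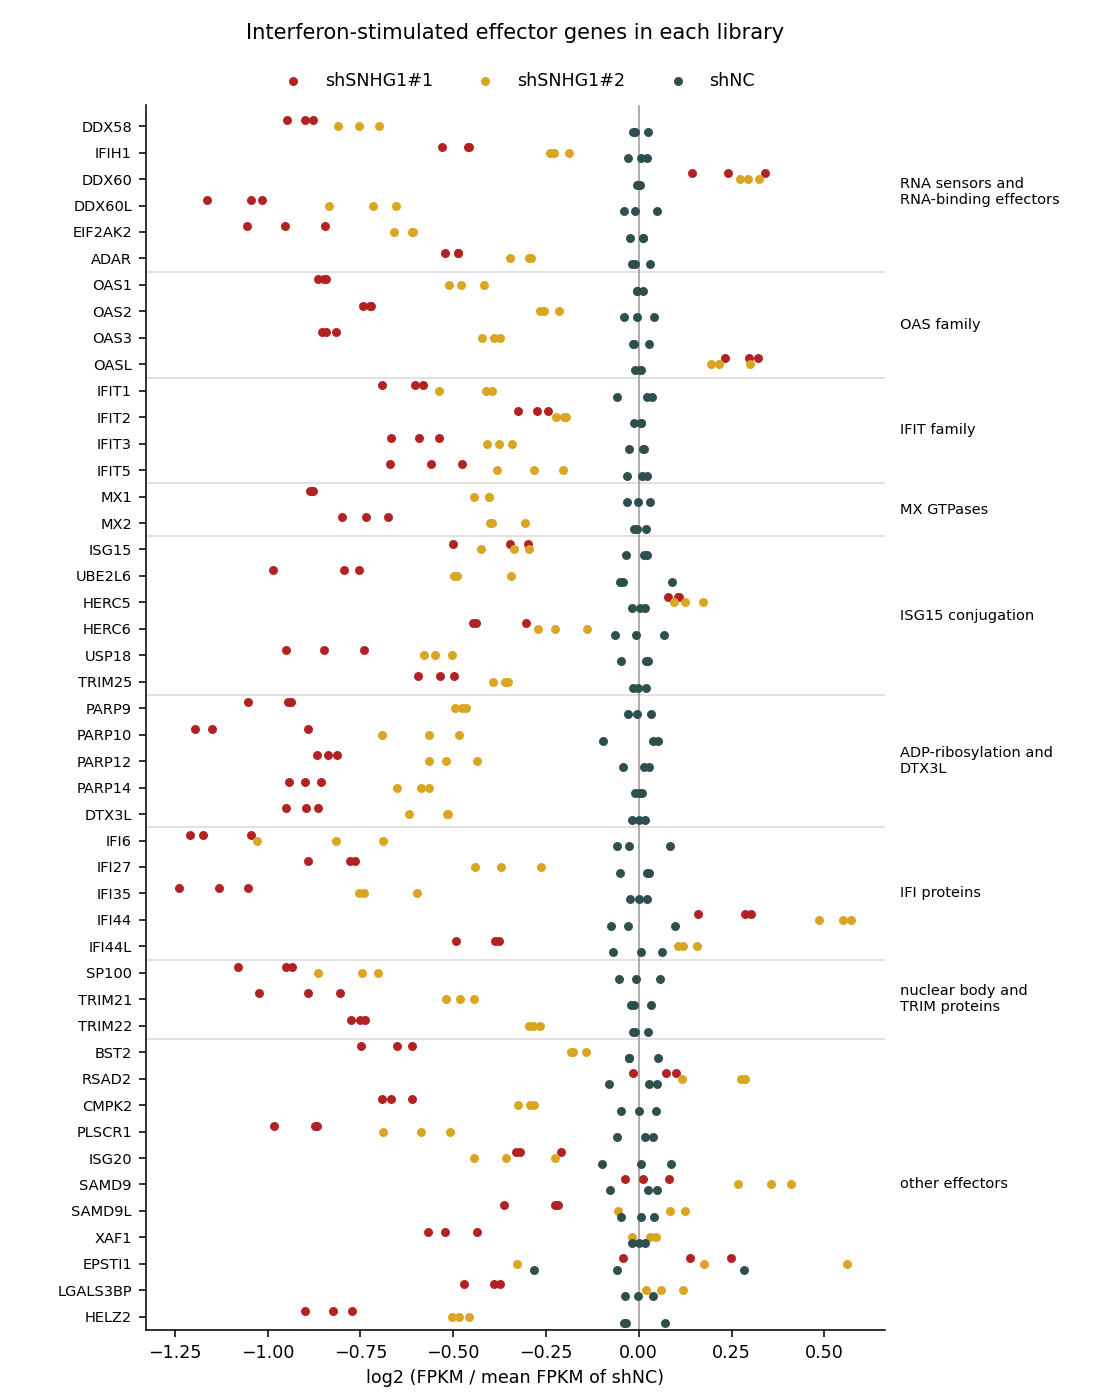
Level of each of the 46 genes in each library, as log2 of its FPKM over the mean FPKM of shNC, grouped by role; each point is 1 library and 0 is the shNC mean. Most rows run from shSNHG1#1 at the left through shSNHG1#2 to shNC, while DDX60, OASL, IFI44 and HERC5 lie to the right of shNC with both hairpins.

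By mean log2 scaled count, 36 of the 46 genes (78.3%) had the order shSNHG1#1 lowest, shSNHG1#2 in the middle and shNC highest, against 24.2% of all features. The FPKM of the 46 genes summed to between 3658 and 3748 per library in shSNHG1#1, between 4396 and 4623 in shSNHG1#2 and between 5835 and 5941 in shNC, so the 3 ranges did not overlap. Levels in shNC ran from 2.71 ± 0.54 FPKM for EPSTI1 to 1137 ± 59.8 FPKM for IFI6 (SD, n = 3), and 15 of the 46 genes had a mean above 100 FPKM there, against 11 in shSNHG1#1 and 13 in shSNHG1#2. Scaling by library totals with the most abundant feature left out moved the median of all features to 0.17 with shSNHG1#1 and 0.16 with shSNHG1#2. The median of the 46 genes minus that of all features was -0.74 with shSNHG1#1 and -0.43 with shSNHG1#2, on either scaling. Of all features called, 51.0% were higher with shSNHG1#1 and 50.5% with shSNHG1#2, and on totals without the most abundant feature these shares were 70.8% with shSNHG1#1 and 72.6% with shSNHG1#2. On library totals alone they were 58.0% with shSNHG1#1 and 60.9% with shSNHG1#2.

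The counts were the same without the library that stood apart. Without shSNHG1#1 replicate 1, 39 genes fell and 3 rose with shSNHG1#1, and 35 fell and 5 rose with shSNHG1#2. Some markers of other cells moved with the groups. The summed level of 12 leukocyte markers was 94.1 to 107 FPKM in shSNHG1#1, 130.0 to 133 FPKM in shSNHG1#2 and 276 to 293 FPKM in shNC. Most of it was CD68, a lysosomal gene that is not restricted to leukocytes. Without CD68 the sums were 9.39 to 16.6 FPKM in shSNHG1#1, 8.59 to 9.72 FPKM in shSNHG1#2 and 7.10 to 8.47 FPKM in shNC, 7 of the 12 markers had a mean under 1 FPKM in every group, and PTPRC, the pan-leukocyte gene, lay between 0.03 and 0.42 FPKM. The defining genes CLEC4C and LILRA4 of plasmacytoid dendritic cells did not exceed 0.05 FPKM in any library. Of 4 markers of plasmacytoid dendritic cells, which are strong interferon producers, 2 had a mean under 1 FPKM in every group. The sum of the 4 was 9.07 to 11.4 FPKM in shSNHG1#1, 9.41 to 11.1 FPKM in shSNHG1#2 and 12.7 to 14.6 FPKM in shNC. The others, IL3RA and TCF4, were highest in shNC. IL3RA was at 7.63 to 10.01 FPKM in shSNHG1#1, 8.12 to 9.62 FPKM in shSNHG1#2 and 10.57 to 12.45 FPKM in shNC. TCF4 was at 1.32 to 1.39 FPKM in shSNHG1#1, 1.29 to 1.53 FPKM in shSNHG1#2 and 2.09 to 2.18 FPKM in shNC. The part of these markers in the result was not tested.

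Among sensors of foreign RNA, DDX58 encodes RIG-I, which recognises RNA ends that host transcripts lack. Its level was 60.7, 63.8 and 62.8 FPKM in shSNHG1#1, 66.7, 69.5 and 72.0 FPKM in shSNHG1#2, and 119, 116 and 116 FPKM in shNC. The 3 groups did not overlap, and the fall against shNC was called with shSNHG1#1 (log2 fold change -0.92, SE 0.037, adjusted p = 8.98e-09) and with shSNHG1#2 (log2 fold change -0.78, SE 0.036, adjusted p = 4e-08). IFIH1, which encodes the long double-stranded RNA sensor MDA5, stood at 40.2, 42.3 and 42.2 FPKM in shSNHG1#1, 49.2, 49.6 and 51.0 FPKM in shSNHG1#2, and 59.0, 58.3 and 56.9 FPKM in shNC. Its groups did not overlap either, and its log2 fold changes against shNC were -0.52 with shSNHG1#1 and -0.28 with shSNHG1#2, both called. EIF2AK2 encodes PKR, the kinase that stops translation when it binds double-stranded RNA. It fell with both hairpins, with log2 fold changes of -0.75 with shSNHG1#1 and -0.47 with shSNHG1#2 on counts, while the log2 ratios of its mean FPKM were -0.95 and -0.63. The transcript length implied by counts and FPKM was 8447 bases in shSNHG1#1, 8320 in shSNHG1#2 and 7115 in shNC for this gene. ADAR, which edits adenosines in double-stranded RNA, was at 63.0, 64.7 and 64.7 FPKM in shSNHG1#1, 71.2, 73.8 and 74.1 FPKM in shSNHG1#2, and 89.4, 89.9 and 92.5 FPKM in shNC. It fell with both hairpins, by less than DDX58 did in value (-0.55 with shSNHG1#1 and -0.37 with shSNHG1#2).

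The oligoadenylate synthetases OAS1, OAS2 and OAS3 make a second messenger that activates the nuclease RNase L. All 3 fell with both hairpins, with log2 fold changes of -0.84, -0.72 and -0.84 with shSNHG1#1 and -0.47, -0.28 and -0.42 with shSNHG1#2. OASL, a relative that lacks this synthetase activity and acts on RIG-I instead, did the opposite. Its level was 269, 257 and 273 FPKM in shSNHG1#1, 251, 269 and 254 FPKM in shSNHG1#2, and 219.9, 217 and 219 FPKM in shNC. Every library with a hairpin against SNHG1 was above every shNC library, and the rise was called with shSNHG1#1 (log2 fold change 0.28, SE 0.028, adjusted p = 1.41e-05) and shSNHG1#2 (log2 fold change 0.20, SE 0.028, adjusted p = 0.000162). Some IFIT proteins bind the ends of viral RNA, and all 4 IFIT genes fell with both hairpins. Over all features, 23.5% were called lower with shSNHG1#1 and 22.8% with shSNHG1#2. IFIT3 stood at 145, 159 and 153 FPKM in shSNHG1#1, 174, 177 and 182 FPKM in shSNHG1#2, and 233, 232 and 227 FPKM in shNC, with no overlap between groups. The fall of the IFIT genes ran from -0.33 for IFIT2 to -0.65 for IFIT3 with shSNHG1#1, and from -0.27 for IFIT2 to -0.48 for IFIT1 with shSNHG1#2. IFIT2 shares 7.5% of its 50-base words with the annotated gene AL353751.1, so its counts are uncertain to that extent. The GTPases MX1 and MX2, which block viral particles, fell with both hairpins (MX1 -0.93 and MX2 -0.80 with shSNHG1#1, MX1 -0.48 and MX2 -0.42 with shSNHG1#2).

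The ISG15 system attaches a ubiquitin-like protein to others. ISG15 itself was at 378, 339.8 and 391 FPKM in shSNHG1#1, 392, 381 and 358 FPKM in shSNHG1#2, and 485, 469 and 488 FPKM in shNC. Both hairpin groups lay below shNC and overlapped each other, and the fall was called with shSNHG1#1 (log2 fold change -0.43, SE 0.049, adjusted p = 3.54e-05) and with shSNHG1#2 (log2 fold change -0.42, SE 0.049, adjusted p = 4.87e-05). Its conjugating enzyme UBE2L6 fell with log2 fold changes of -0.84 with shSNHG1#1 and -0.42 with shSNHG1#2, and USP18, which removes ISG15 and restrains the type I receptor, with -0.89 and -0.61. USP18 shares 23.4% of its 50-base words with other genes, chiefly USP41, so its counts are uncertain. The ligase HERC5 was at 59.9, 61.2 and 61.0 FPKM in shSNHG1#1, 60.7, 61.9 and 64.1 FPKM in shSNHG1#2, and 57.4, 56.1 and 56.9 FPKM in shNC. All 6 libraries with a hairpin against SNHG1 lay above shNC, but the difference missed the threshold in both comparisons (adjusted p = 0.0701 and 0.0861) and passed it when library totals replaced TMM scaling (log2 fold changes 0.11 and 0.12). TRIM25, a ligase that activates RIG-I and carries ISG15, stood at 28.0, 29.9 and 29.1 FPKM in shSNHG1#1, 32.2, 32.9 and 33.1 FPKM in shSNHG1#2, and 42.2, 41.8 and 42.8 FPKM in shNC, with no overlap between groups, and fell with both hairpins (-0.60 with shSNHG1#1 and -0.45 with shSNHG1#2).

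The genes of ADP-ribosylation and DTX3L were all called lower in both comparisons. Of all features, 23.5% were called lower with shSNHG1#1 and 22.8% with shSNHG1#2. PARP9, which acts in a complex with the ubiquitin ligase DTX3L, was at 31.0, 33.4 and 33.6 FPKM in shSNHG1#1, 45.7, 46.6 and 46.3 FPKM in shSNHG1#2, and 63.1, 65.8 and 64.2 FPKM in shNC. The groups did not overlap, and PARP9 was 2.07-fold lower with shSNHG1#1 (log2 fold change -1.05, SE 0.033, adjusted p = 1.52e-09) and 1.47-fold lower with shSNHG1#2 (log2 fold change -0.56, SE 0.032, adjusted p = 1.96e-07). PARP10, a mono-ADP-ribosyltransferase, was at 9.88, 7.99 and 8.25 FPKM in shSNHG1#1, 13.1, 12.4 and 11.3 FPKM in shSNHG1#2, and 18.99, 17.1 and 18.8 FPKM in shNC. It fell 2.15-fold with shSNHG1#1 and 1.56-fold with shSNHG1#2, again without overlap. PARP12, PARP14 and DTX3L fell with log2 fold changes between -0.95 and -0.89 with shSNHG1#1 and between -0.67 and -0.58 with shSNHG1#2. PARP9 and DTX3L lie head to head on chromosome 3, and the same 10 bases (chr3:122564332-122564341 in GRCh38.p14) give the motif match of both promoter windows. Their annotated exons overlap on opposite strands, and no label states whether counting used strand, so reads of the overlap cannot be assigned. Of the 46 genes, 13 have annotated exons that overlap a gene on the opposite strand, and 4 overlap a gene on the same strand. ISG15, EIF2AK2, PARP10, XAF1, SP100 and TRIM25 are among the genes with such overlaps.

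IFI6, a small membrane protein that restrains cell death, was the most abundant of the 46 genes in all 3 groups and had the lowest fold change against shNC with either hairpin. Its level was 551, 504 and 491 FPKM in shSNHG1#1, 706, 646 and 558 FPKM in shSNHG1#2, and 1205, 1116 and 1092 FPKM in shNC. The groups did not overlap in FPKM, though those of the hairpins against SNHG1 overlapped on scaled counts, and IFI6 was 2.28-fold lower with shSNHG1#1 (log2 fold change -1.19, SE 0.081, adjusted p = 5.82e-07) and 1.87-fold lower with shSNHG1#2 (log2 fold change -0.90, SE 0.08, adjusted p = 5.38e-06). IFI35, a partner of the protein NMI, was at 47.9, 44.5 and 50.6 FPKM in shSNHG1#1, 69.3, 62.3 and 62.8 FPKM in shSNHG1#2, and 106, 103 and 105 FPKM in shNC. It was 2.13-fold lower with shSNHG1#1 and 1.64-fold lower with shSNHG1#2, with separate groups. IFI27, which encodes a small mitochondrial protein, was at 225, 206 and 223 FPKM in shSNHG1#1, 318, 295 and 281 FPKM in shSNHG1#2, and 369, 388 and 389.6 FPKM in shNC. It fell 1.79-fold with shSNHG1#1 and 1.33-fold with shSNHG1#2.

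SP100, a scaffold of nuclear bodies that restrict DNA viruses, was at 31.4, 34.4 and 34.8 FPKM in shSNHG1#1, 36.5, 40.8 and 39.6 FPKM in shSNHG1#2, and 66.2, 69.2 and 64.0 FPKM in shNC. It fell 2.03-fold with shSNHG1#1 and 1.73-fold with shSNHG1#2, and no library of 1 group reached another group. TRIM21, a cytosolic antibody receptor, and the antiviral ligase TRIM22 fell with log2 fold changes of -0.94 and -0.79 with shSNHG1#1 and -0.56 and -0.36 with shSNHG1#2, and 12.1% of the 50-base words of TRIM22 occur in other genes. BST2, or tetherin, which holds budding viruses on the cell surface, was at 28.9, 26.9 and 29.6 FPKM in shSNHG1#1, 41.1, 40.0 and 39.9 FPKM in shSNHG1#2, and 44.4, 47.0 and 44.5 FPKM in shNC. It fell with shSNHG1#1 (-0.73) and with shSNHG1#2 (-0.22), the second of which was -0.069 and not called on totals without the most abundant feature. ISG20, an exonuclease, was at 55.3, 50.9 and 51.2 FPKM in shSNHG1#1, 54.7, 47.0 and 49.9 FPKM in shSNHG1#2, and 67.8, 64.2 and 59.7 FPKM in shNC. Its hairpin groups overlapped each other and lay below shNC, with log2 fold changes of -0.29 and -0.32, both called. PLSCR1, a phospholipid scramblase, and the helicase gene HELZ2 fell 1.96-fold and 1.90-fold with shSNHG1#1 and 1.52-fold and 1.49-fold with shSNHG1#2. EPSTI1, the least abundant of the 46, had between 2.16 and 4.0 FPKM over the 9 libraries, its groups overlapped, and the interval of its log2 fold change was wide at -0.40 to 0.51 with shSNHG1#1 and -0.17 to 0.73 with shSNHG1#2 (95% intervals).

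**Figure D2:**
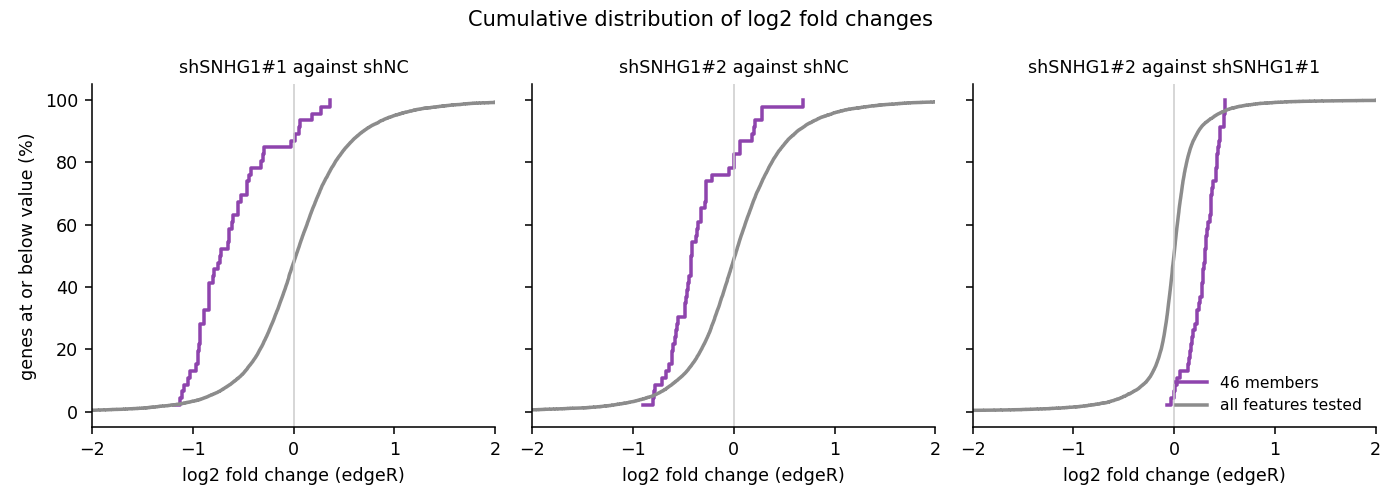
Cumulative share of genes, in percent, at or below each log2 fold change, for the 46 genes and for all 18767 features tested, in each comparison. The curve of the 46 genes lies mostly left of that of all features against shNC (medians -0.72 and -0.42) and mostly right of it for shSNHG1#2 against shSNHG1#1 (median 0.31).

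Several of the 46 genes lie side by side in the genome, and some neighbours moved apart. The helicase genes DDX60L and DDX60 are adjacent on chromosome 4. DDX60L was at 17.6, 19.4 and 19.1 FPKM in shSNHG1#1, 22.1, 23.9 and 25.0 FPKM in shSNHG1#2, and 40.7, 38.2 and 39.0 FPKM in shNC. DDX60 was at 20.4, 23.4 and 21.8 FPKM in shSNHG1#1, 22.7, 22.3 and 23.1 FPKM in shSNHG1#2, and 18.4, 18.5 and 18.5 FPKM in shNC. DDX60L was thus below shNC in all 6 libraries with a hairpin against SNHG1, and DDX60 above it in all 6. DDX60L fell 2.19-fold with shSNHG1#1 (log2 fold change -1.13, SE 0.049, adjusted p = 1.72e-08) and 1.74-fold with shSNHG1#2 (log2 fold change -0.80, SE 0.048, adjusted p = 2.81e-07). DDX60 rose 1.14-fold with shSNHG1#1 (log2 fold change 0.18, SE 0.041, adjusted p = 0.00345) and 1.16-fold with shSNHG1#2 (log2 fold change 0.21, SE 0.041, adjusted p = 0.00142). The log2 ratio of DDX60 to DDX60L in FPKM was 0.22, 0.27 and 0.20 in shSNHG1#1, 0.039, -0.10 and -0.11 in shSNHG1#2 and -1.14, -1.04 and -1.08 in shNC. The ratio was 1.31 higher with shSNHG1#1 and 1.03 higher with shSNHG1#2 (exact permutation test, two-sided, p = 0.1 for each, the smallest that 3 against 3 allows). The annotated transcripts of DDX60 share 0.618% of their 50-base words with DDX60L. Both promoter stretches shown above hold 2 motif matches.

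IFI44L and IFI44 are adjacent on chromosome 1. IFI44 was at 36.7, 40.5 and 40.1 FPKM in shSNHG1#1, 48.1, 48.9 and 46.1 FPKM in shSNHG1#2, and 35.2, 32.2 and 31.2 FPKM in shNC. It rose with shSNHG1#1 (log2 fold change 0.37, SE 0.051, adjusted p = 0.000144) and with shSNHG1#2 (log2 fold change 0.69, SE 0.051, adjusted p = 1.41e-06), and every library with a hairpin against SNHG1 exceeded every shNC library. The FPKM showed a smaller rise (log2 ratios of means 0.25 and 0.54), and the implied transcript length was 3611 bases in shSNHG1#1, 3744 in shSNHG1#2 and 3229 in shNC. IFI44L was at 17.0, 18.5 and 18.3 FPKM in shSNHG1#1, 25.8, 26.7 and 26.0 FPKM in shSNHG1#2, and 24.0, 25.0 and 22.8 FPKM in shNC. It fell with shSNHG1#1 (log2 fold change -0.44, SE 0.047, adjusted p = 1.9e-05), while with shSNHG1#2 its FPKM lay just above shNC and its log2 fold change of 0.058 was not called (adjusted p = 0.339), though it passed on library totals (0.12) and on totals without the most abundant feature (0.20). The log2 ratio of IFI44L to IFI44 was -1.11, -1.13 and -1.13 in shSNHG1#1, -0.90, -0.87 and -0.82 in shSNHG1#2 and -0.55, -0.36 and -0.45 in shNC. Its difference from shNC was -0.67 with shSNHG1#1 and -0.41 with shSNHG1#2 (exact permutation test, p = 0.1 each).

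RSAD2 encodes viperin, which makes a chain-terminating nucleotide from CTP, and its neighbour CMPK2 encodes a nucleotide kinase. RSAD2 was at 9.97, 10.2 and 9.37 FPKM in shSNHG1#1, 10.3, 11.5 and 11.6 FPKM in shSNHG1#2, and 9.81, 8.96 and 9.67 FPKM in shNC. It overlapped shNC with shSNHG1#1 and lay above shNC with shSNHG1#2, where the rise was called (log2 fold change 0.18, SE 0.056, adjusted p = 0.022). That call was lost without shSNHG1#2 replicate 2 or 3 or without shNC replicate 2 or 3, with adjusted p up to 0.103. CMPK2 fell with both hairpins (-0.64 with shSNHG1#1 and -0.33 with shSNHG1#2). The log2 ratio of CMPK2 to RSAD2 was 0.90, 0.90 and 1.07 in shSNHG1#1, 1.26, 1.11 and 1.05 in shSNHG1#2 and 1.66, 1.70 and 1.64 in shNC, so it was lower with both hairpins without overlap (differences -0.71 and -0.53; exact permutation test, p = 0.1 each). Annotated exons of this pair overlap on opposite strands too.

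HERC6, a relative of HERC5 beside it on chromosome 4, fell with shSNHG1#1 (-0.46) and with shSNHG1#2 (-0.27), the second of which was -0.13 and not called on totals without the most abundant feature. The log2 ratio of HERC6 to HERC5 differed from shNC by -0.49 with shSNHG1#1 and -0.34 with shSNHG1#2 (exact permutation test, p = 0.1 and 0.1). SAMD9 and SAMD9L restrict poxviruses. SAMD9 was at 26.6, 28.9 and 27.5 FPKM in shSNHG1#1, 32.8, 35.0 and 36.3 FPKM in shSNHG1#2, and 28.2, 27.8 and 25.9 FPKM in shNC. The rise was called with shSNHG1#2 (log2 fold change 0.28, SE 0.047, adjusted p = 0.000592), while with shSNHG1#1 its libraries overlapped shNC (log2 fold change -0.028, SE 0.047, adjusted p = 0.66). SAMD9L was at 8.88, 9.77 and 9.82 FPKM in shSNHG1#1, 11.0, 12.1 and 12.4 FPKM in shSNHG1#2, and 11.5, 11.8 and 11.0 FPKM in shNC. It fell with shSNHG1#1 (log2 fold change -0.30, SE 0.052, adjusted p = 0.000679), and with shSNHG1#2 its value of -0.0028 was not called and was 0.14 on totals without the most abundant feature. The log2 ratio of SAMD9 to SAMD9L differed from shNC by 0.29 with shSNHG1#1 and 0.29 with shSNHG1#2 (exact permutation test, p = 0.1 and 0.1). That of IFIT2 to IFIT3 differed by 0.32 with shSNHG1#1 and 0.17 with shSNHG1#2 (exact p = 0.1 and 0.1). The log2 ratio of OAS3 to OAS2 differed by -0.11 with shSNHG1#1 and -0.15 with shSNHG1#2 (exact p = 0.1 and 0.1), and that of OAS1 to OAS3 by -0.015 and -0.074 (exact p = 0.3 and 0.1). For MX2 to MX1 the differences were 0.14 with shSNHG1#1 and 0.048 with shSNHG1#2 (exact p = 0.1 and 0.2), and for IFIT1 to IFIT5 -0.056 and -0.16 (exact p = 0.4 and 0.1). For PARP9 to DTX3L they were -0.076 with shSNHG1#1 and 0.071 with shSNHG1#2 (exact p = 0.1 and 0.3).

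**Figure D3:**
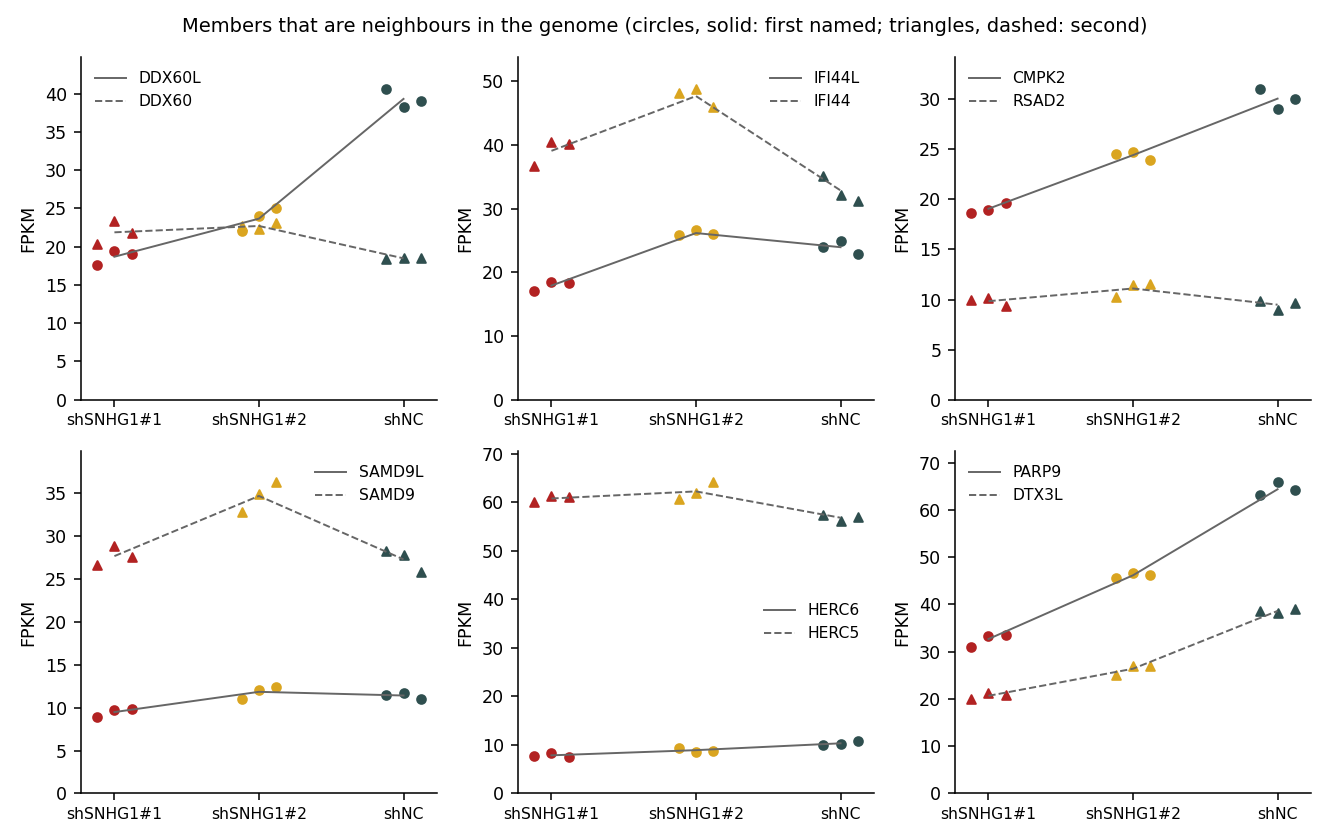
FPKM of 6 pairs of genome neighbours in each library (points) with the group means joined by lines, for shSNHG1#1, shSNHG1#2 and shNC from left to right. DDX60L and DDX60 cross, CMPK2 is lower with both hairpins while RSAD2 is nearly level, and PARP9 and DTX3L are both lower.

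The hairpins against SNHG1 differed from each other. Of the 46 genes, 34 were called higher with shSNHG1#2 than with shSNHG1#1, against 2.0% of all features, and 0 were called lower, against 1.12%, in edgeR's quasi-likelihood test. Over all features, 3.12% were called in either direction. A fall of at least 1.5-fold was called for 0 of the 46 genes, against 0.192% of all features. Of all features called, 64.0% were higher, and 74.8% on library totals. At an unadjusted p under 0.05, 40 were higher, against 8.29% of all features, and 1, OASL, was lower, against 7.43%. DESeq2 also called 0 of the 46 lower, and 354 of all features. Without shSNHG1#1 replicate 1, 31 were called higher and 0 lower, and without any 1 library 29 to 34 were higher. The median log2 fold change of the 46 genes was 0.31, against -0.0018 for all features. The libraries of shSNHG1#2 lay above all of shSNHG1#1 for 38 genes, against 10.7% of all features, and below for 0, against 10.1%. Since the groups were set against the same shNC libraries above, this comparison is the one that tests the hairpins against each other.

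BST2 had the largest edgeR difference among the 46 (log2 fold change 0.51, SE 0.04, adjusted p = 8.92e-05), barely above that of XAF1. Its 3 libraries of shSNHG1#2 lay between 39.9 and 41.1 FPKM, against 26.9 to 29.6 FPKM in shSNHG1#1. By log2 ratio of mean FPKM, IFI44L (0.55) and XAF1 (0.53) exceeded BST2 (0.50). XAF1, a binding partner of the apoptosis inhibitor XIAP, was at 37.3, 40.9 and 38.5 FPKM in shSNHG1#1, 54.6, 56.4 and 57.0 FPKM in shSNHG1#2, and 54.5, 55.9 and 55.3 FPKM in shNC. The libraries of shSNHG1#2 overlapped those of shNC in FPKM, and those of shSNHG1#1 lay below both groups, so XAF1 was 1.42-fold higher with shSNHG1#2 than with shSNHG1#1 (log2 fold change 0.51, SE 0.032, adjusted p = 2.36e-05), fell against shNC with shSNHG1#1 (-0.56), and was not called against shNC with shSNHG1#2 (-0.046, or 0.10 and called on totals without the most abundant feature). LGALS3BP, a secreted glycoprotein that binds galectins, was at 379, 354 and 375 FPKM in shSNHG1#1, 533, 512 and 497 FPKM in shSNHG1#2, and 479, 491 and 504 FPKM in shNC. It showed the same arrangement, with 0.46 between the hairpins, -0.46 for shSNHG1#1 and 0.0016 for shSNHG1#2 against shNC, the last of which was 0.15 and called on totals without the most abundant feature. IFI44L (difference 0.50), PARP9 (0.49), MX1 (0.45) and OAS2 (0.43) were also higher with shSNHG1#2.

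For 12 genes edgeR did not call a difference between the hairpins. DESeq2 called 36 of the 46 higher, adding DDX58 (0.14, adjusted p = 0.00227) and IFIT1 (0.17, adjusted p = 0.000634). It also called more of all features higher, 611 against 375 in edgeR. ISG15 differed by 0.01 on the log2 scale (95% interval -0.10 to 0.12), HERC5 by -0.0031 (-0.059 to 0.053), DDX60 by 0.03 (-0.06 to 0.12) and ISG20 by -0.033 (-0.14 to 0.077). OASL, the member with the lowest value, differed by -0.073 (-0.14 to -0.011). In edgeR, IFIT2 and DDX58 differed by 0.055 (0.00015 to 0.11) and 0.14 (0.058 to 0.22), and IFI6 by 0.29 (0.11 to 0.46), so for some of these genes the interval lay above 0 although the adjusted p missed the threshold. EPSTI1, HERC6, IFIT1 and RSAD2 were also not called by edgeR.

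**Figure D4:**
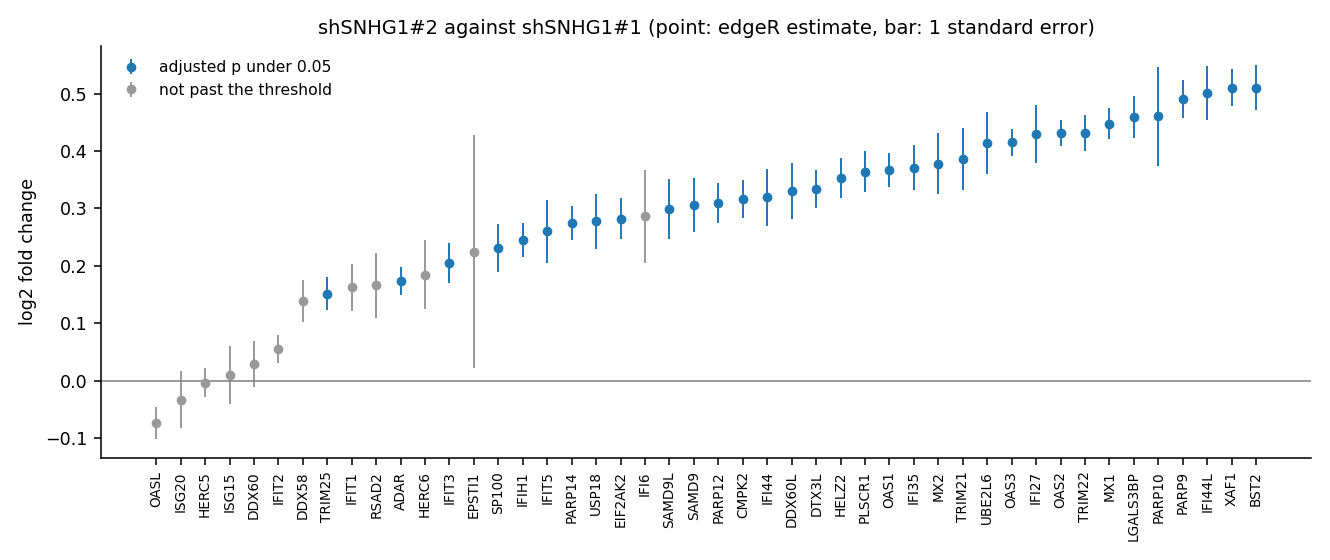
Log2 fold change of each of the 46 genes with shSNHG1#2 against shSNHG1#1, in ascending order, with bars of 1 standard error from edgeR; blue points have an adjusted p under 0.05. From OASL at -0.073 to BST2 at 0.51, 34 genes lie above 0 past the threshold and 0 below it.

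The genes that carry the signal had smaller median changes than the 46. Of 31 genes of interferon receptors, kinases, transcription factors, nucleic acid sensing and inhibitors, 19 fell and 4 rose with shSNHG1#1 (median log2 fold change -0.34), against 23.5% of all features lower and 24.5% higher. With shSNHG1#2, 18 fell and 3 rose (median -0.31), against 22.8% lower and 23.3% higher. STAT2 and IRF9, parts of the complex that binds the response element, were lower with both hairpins. STAT2 was at 29.5, 29.3 and 30.2 FPKM in shSNHG1#1, 34.8, 37.5 and 36.7 FPKM in shSNHG1#2, and 51.2, 52.2 and 53.6 FPKM in shNC. IRF9 was at 22.4, 20.6 and 20.3 FPKM in shSNHG1#1, 30.3, 29.2 and 28.7 FPKM in shSNHG1#2, and 52.9, 54.7 and 53.9 FPKM in shNC. For both genes the groups were separate. The log2 fold changes were -0.86 for STAT2 and -1.36 for IRF9 with shSNHG1#1, and -0.60 for STAT2 and -0.94 for IRF9 with shSNHG1#2. The endosomal RNA sensor TLR3 was at 5.13, 5.36 and 5.17 FPKM in shSNHG1#1, 8.31, 6.51 and 7.10 FPKM in shSNHG1#2, and 10.9, 10.9 and 10.5 FPKM in shNC and fell 2.22-fold with shSNHG1#1 and 1.83-fold with shSNHG1#2. The receptor genes IFNAR1 (-0.63 with shSNHG1#1, -0.47 with shSNHG1#2) and IFNAR2 (-0.63 and -0.54) fell, whereas the kinase TYK2 (0.42 and 0.49) and IRF3 (0.48 and 0.45) rose. IFNAR1, IFNAR2, TYK2 and IRF3 were chosen after their values were seen. With shSNHG1#2 against shSNHG1#1, 7 of the 31 were higher, against 2.0% of all features, and 1, JAK2, was lower (-0.26), against 1.12%. JAK2 was singled out because of its value, and 0 of the 31 were lower without shSNHG1#1 replicate 3, shSNHG1#2 replicate 1 or shSNHG1#2 replicate 3, 2 were lower without shSNHG1#1 replicate 2 or in DESeq2, and 4 were higher without shSNHG1#1 replicate 3 or shSNHG1#2 replicate 2. On totals without the most abundant feature, 8 of the 31 rose with shSNHG1#1 and 7 with shSNHG1#2. Over all features, 6890 were called higher with shSNHG1#1 and 6742 with shSNHG1#2 on that scaling.

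None of the 5 interferon genes that passed the filter was called lower against shNC, and 1 rose. Of all features, 23.5% were called lower and 24.5% higher with shSNHG1#1, and 22.8% lower and 23.3% higher with shSNHG1#2. Of 14 ligand genes in the table, 9 did not exceed 0.23 FPKM in any library, all of them type I alpha and omega genes or IFNG. IFNL1, a type III interferon, was at 32.9, 29.4 and 30.9 FPKM in shSNHG1#1, 30.9, 27.1 and 30.4 FPKM in shSNHG1#2, and 9.69, 8.47 and 10.6 FPKM in shNC. All 6 libraries with a hairpin against SNHG1 lay above shNC, and IFNL1 rose 3.13-fold with shSNHG1#1 (log2 fold change 1.65, SE 0.091, adjusted p = 1.16e-07) and 2.94-fold with shSNHG1#2 (log2 fold change 1.55, SE 0.091, adjusted p = 2.37e-07). IFNL2 had between 13.5 and 16.8 FPKM and IFNL3 between 9.91 and 12.3 FPKM over the 9 libraries, and neither was called in any comparison. IFNB1 was at 2.55, 2.00 and 1.61 FPKM in shSNHG1#1, 2.44, 2.17 and 2.06 FPKM in shSNHG1#2 and 1.55, 1.33 and 1.61 FPKM in shNC and was not called (adjusted p = 0.188 and 0.11), nor was IFNE (2.29 to 3.05 FPKM). IFNL1 and these other ligands were singled out after their values were seen. IFNLR1, the specific chain of the type III receptor, had between 0.99 and 1.44 FPKM and was not called. Its shSNHG1#2 libraries nevertheless lay above those of the other groups. The other chain of that receptor, IL10RB, was called lower with shSNHG1#1 (-0.49) and with shSNHG1#2 (-0.46).

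**Figure D5:**
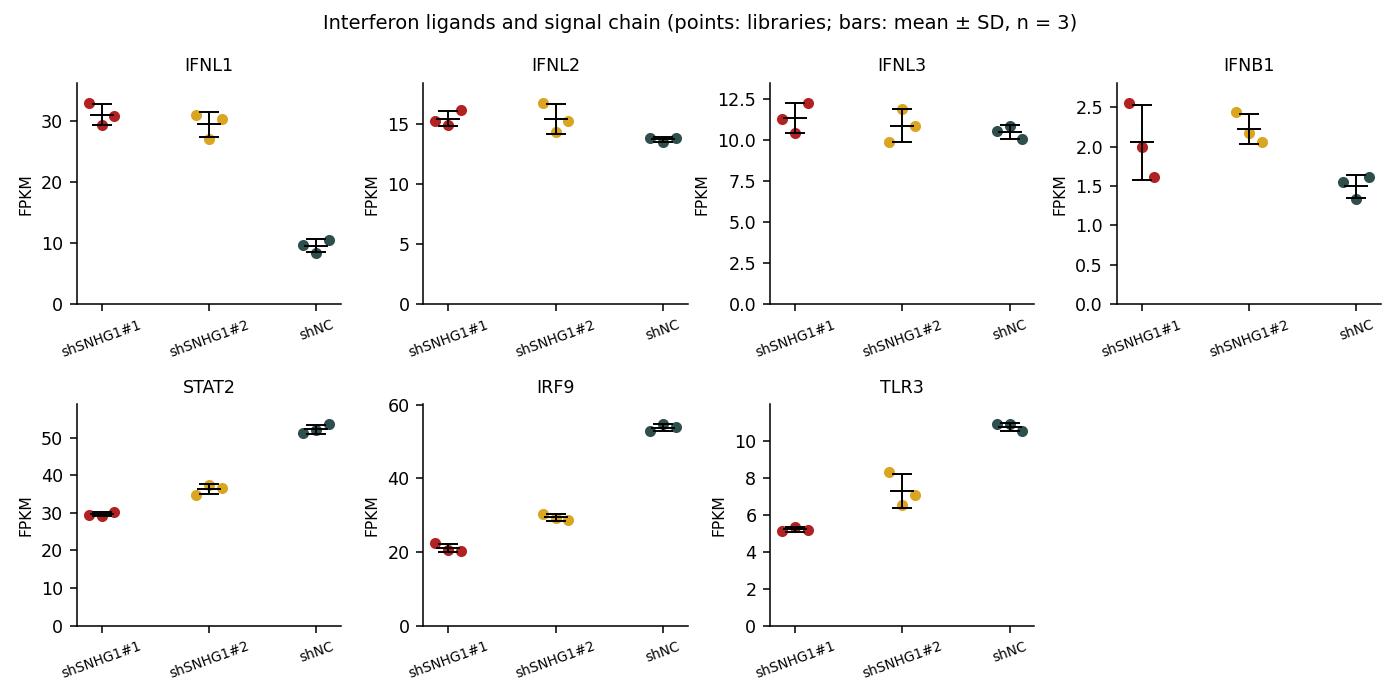
FPKM of 4 interferon genes (top) and of STAT2, IRF9 and TLR3 (bottom) in each library, with the mean and SD of each group (n = 3). IFNL1 is higher with both hairpins against SNHG1 than with shNC, and the 3 genes below are lower, with shSNHG1#2 between shSNHG1#1 and shNC.

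Most of 47 interferon-stimulated genes outside the 46 were lower against shNC too. That list was chosen with earlier results of these data known, so it is not an independent check. Of the 47, 39 fell and 3 rose with shSNHG1#1 (median -0.74), against 23.5% of all features lower and 24.5% higher. With shSNHG1#2, 36 fell and 5 rose (median -0.49), against 22.8% lower and 23.3% higher. With shSNHG1#2 against shSNHG1#1, 23 (48.9%) were higher and 0 lower in edgeR, against 2.0% and 1.12% of all features and 73.9% of the 46 genes higher, with 1 lower at an unadjusted p under 0.05 and 1 lower in DESeq2. APOL1, which encodes a trypanosome-killing apolipoprotein, was at 49.1, 51.3 and 50.3 FPKM in shSNHG1#1, 57.2, 60.5 and 58.0 FPKM in shSNHG1#2, and 146, 151 and 147 FPKM in shNC. It fell 3.07-fold with shSNHG1#1 and 2.61-fold with shSNHG1#2, more in value than any of the 46. LAMP3, a lysosomal membrane protein gene, was at 20.6, 19.8 and 19.6 FPKM in shSNHG1#1, 36.3, 31.1 and 33.8 FPKM in shSNHG1#2, and 67.2, 74.8 and 65.8 FPKM in shNC. It fell 3.46-fold with shSNHG1#1 and 2.28-fold with shSNHG1#2. GBP1, a guanylate-binding protein gene, was at 9.27, 10.2 and 9.94 FPKM in shSNHG1#1, 10.5, 10.9 and 11.6 FPKM in shSNHG1#2, and 26.1, 25.4 and 26.2 FPKM in shNC. It fell 2.72-fold with shSNHG1#1 and 2.48-fold with shSNHG1#2. The nucleotidase gene NT5C3A was at 60.4, 64.5 and 66.1 FPKM in shSNHG1#1, 84.6, 92.0 and 82.5 FPKM in shSNHG1#2, and 194, 186 and 187 FPKM in shNC, and fell 3.06-fold with shSNHG1#1 and 2.33-fold with shSNHG1#2. The aminopeptidase gene LAP3 was at 47.5, 46.8 and 48.9 FPKM in shSNHG1#1, 56.3, 56.0 and 54.6 FPKM in shSNHG1#2, and 93.5, 91.2 and 91.7 FPKM in shNC, and fell 2.02-fold with shSNHG1#1 and 1.75-fold with shSNHG1#2. All 5 were separate between each hairpin group and shNC.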

How the data were processed

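RNA sequencing libraries of 9 samples in 3 groups of 3 were analysed. The deposited table gives an estimated count and an FPKM value per feature and library. That the second value is FPKM was taken from the values, since the length implied by the counts and these values has a median ratio of 0.9973 to 1.002 to the GENCODE length. The submitters' processing notes name HISAT2 2.0.4 and Bowtie2 2.2.5 as well as RSEM 1.2.12 and DESeq2 1.4.5; the sources used here give neither build nor strand use. Estimated counts deposited by the authors were rounded, then tested in R 4.3.3 by edgeR 4.0.16 (TMM, filterByExpr, quasi-likelihood F test on group over all 9 libraries), with Benjamini-Hochberg adjustment over 18767 features and a threshold of 0.05. The script was tested on simulated data. Replicate pairs differed by 3.12 to 6.29 in chi-square per degree of freedom, so each counted as 1 sample. Scaling, filter, test (DESeq2 1.42.0), the replicate block and each library left out were varied.

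The members and lists were chosen with earlier results of these data known. Values in every library are given by rule for the 5 lowest and 5 highest called members of each comparison and the 4 most abundant, and outside the members for the 4 genes per list that had the lowest p against shNC with either hairpin. A result that this rule names is not reported here. Sequences are from RefSeq (GRCh38.p14), and shared words of 50 bases and overlaps from GENCODE. Standard errors were derived from the F statistic, and 95% intervals from these and the degrees of freedom of the fit.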

Additional observations from a re-analysis of the deposited data

Results flagged for a closer look

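For 5 of the 46 genes, the change against shNC was called with 1 hairpin and not with the other, and the difference between the hairpins was itself called by edgeR's quasi-likelihood test. The log2 fold change with shSNHG1#2 against shSNHG1#1 was 0.51 for XAF1 (adjusted p = 2.36e-05), 0.50 for IFI44L (0.000259), 0.46 for LGALS3BP (8.92e-05), 0.31 for SAMD9 (0.00526) and 0.30 for SAMD9L (0.0117). In each of the 5, all 3 libraries of shSNHG1#2 lay above all 3 of shSNHG1#1. Of all features, 3.12% were called between the hairpins in either direction, and the share that met the whole rule was not counted. XAF1, IFI44L, LGALS3BP and SAMD9L fell with shSNHG1#1 and were not called with shSNHG1#2, while SAMD9 rose with shSNHG1#2 and was not called with shSNHG1#1. On totals without the most abundant feature, XAF1 (0.10), IFI44L (0.20), LGALS3BP (0.15) and SAMD9L (0.14) were called higher with shSNHG1#2 than with shNC. The difference of SAMD9L was not called without shSNHG1#2 replicate 2 (0.30, adjusted p = 0.0567) or shSNHG1#2 replicate 3 (0.28, adjusted p = 0.0531).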

How the results depend on the processing

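With shSNHG1#1, 39 of the 46 genes fell in every alternative run. With shSNHG1#2, 35 fell, except on library totals without the most abundant feature, a scaling added after seeing the data, where 33 fell. Under that scaling 5 of the 46 rose with shSNHG1#1 and 10 with shSNHG1#2, 8 signal genes rose with shSNHG1#1 and 7 with shSNHG1#2, and SAMD9L (0.14) and XAF1 (0.10) turned to higher with shSNHG1#2. It raises all features alike, and the median of all features moved to 0.17 with shSNHG1#1 and 0.16 with shSNHG1#2. Over all features, 6890 were then called higher with shSNHG1#1 and 6742 with shSNHG1#2. On library totals without TMM, 5 signal genes rose with shSNHG1#2, where 5344 of all features were called higher. With shSNHG1#2 against shSNHG1#1, DESeq2 called 965 features, 2 signal genes lower and 1 other interferon-stimulated gene lower, and a fit to only these 2 groups called 386 features, against 586. The cause was not tested.

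Leaving out each library in turn gave 39 of the 46 genes lower and 3 higher with shSNHG1#1, 35 lower and 4 to 5 higher with shSNHG1#2, and 29 to 34 higher and 0 lower with shSNHG1#2 against shSNHG1#1. In that last comparison 297 to 534 features, 4 to 7 signal genes higher and 0 to 2 lower were called, and the calls of IFIT5, TRIM25, PARP10, SP100, SAMD9L and IFIT3 were each lost without at least 1 library. Deviations of libraries with the same replicate number showed no sign of pairing. Their correlations were -0.0361 to 0.0322, against -0.0522 to 0.0474 for libraries with different numbers. A pairing that touches few genes could be missed in this way. With the replicate block, 39 fell and 3 rose with shSNHG1#1, 35 fell and 5 rose with shSNHG1#2, and 35 were higher and 0 lower between the hairpins, with IFI6 added (0.28, adjusted p = 0.0132 in edgeR). With 3 libraries a group, exact tests of single ratios could not pass 0.05.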
